A study of Zea mays with 56 samples.

Results

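The genes described here lie near the end of chromosome 7 of maize, from 170 to 180 Mb, where the last annotated gene of the chromosome starts at 181410328. They were chosen as genes of the A chromosomes, the regular set of maize, with a start from 170000001 to 180000000 on chromosome 7 in the authors' deposited table and a level of 0.5 FPKM or more in at least 2 of 28 RNA-seq libraries. FPKM is the number of sequenced fragments of a gene, scaled by its transcript length and by the depth of the library. Of 384 genes annotated in the window, 268 met the rule, out of 24159 A-chromosome genes past the same filter and 41064 genes in the table. The window itself was chosen by measured values, the log2 changes between plants with and without B chromosomes, as a segment rich in genes that differ. All values of that contrast are therefore given as a description with no test, while the tests among plants that all carry B chromosomes used no control plant.

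B chromosomes are supernumerary chromosomes that occur in some maize plants beside the A set and are not needed for growth. They are kept in populations by a drive that includes nondisjunction at the second pollen mitosis and preferential fertilization of the egg by the sperm that holds them. Plants tolerate low copy numbers well, while high copy numbers reduce vigour and fertility.

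Leaves of greenhouse plants of the inbred line W22 were sampled at 45 days, after fluorescence in situ hybridization of seedlings had given each plant's number of B chromosomes. The control group was 4 W22 plants without a B chromosome. The carriers were 24 W22 plants, with 4 plants each at 1, 2, 3 and 4 copies (1B to 4B), 2 at 5 copies (5B), 3 at 6 copies (6B) and 3 at 7 copies (7B). No other allele or treatment was given in the labels, which describe the plants within a group as biological replicates, so the tests measure the spread between plants.

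Control plants bore codes of one series and carriers codes of another, and no group held both, so B presence and the origin of that series cannot be told apart. Read depth of the gene libraries differed by up to 1.91-fold, 0 pairs of libraries were identical, and the libraries detected 20483 to 21144 genes. The deposited files pair the gene identifiers with no gene names, so the leaf label could not be checked against marker genes and no role is given to any gene. The strand used in counting was not given in the sources used here. For the 35 of 268 genes that share a locus with another gene of the window, the split of reads between the genes of a locus is uncertain.

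The window was well expressed in leaf. It was chosen as rich in genes that differ, and such genes were more frequent at higher levels. Its level is thus not independent of that choice. The share of annotated genes past the level filter was 69.8% in the window and 59.9% over all A-chromosome genes, and 206 of the 268 genes reached 0.5 FPKM in every library. Their median level, as a mean over all libraries, was 7.68 FPKM against 5.77 FPKM over all A-chromosome genes tested, with a range from 0.0665 to 1536 FPKM. Their loci were also longer, with a median span of 4726 bp against 3780 bp. The level was concentrated in few genes, since the 3 most abundant held 29.4% and the 10 most abundant 55.6% of the summed FPKM. Of the 116 genes below the filter, 45 were listed at 0 in all 28 libraries. Just inside the filter, the lowest second-highest library of a gene was 0.510 FPKM, and just outside it the highest was 0.470 FPKM. The first gene of the window started at 170064640 and the last at 179996698. The nearest tested genes outside it started at 169991268 and 180033380.

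In the contrast that chose the window, 168 of 268 genes (62.7%) were called different between carriers and control, where percent called over all A-chromosome genes was 46.8. A call is an adjusted p under 0.05 from limma, a linear model fitted to log2(FPKM + 0.5) of all genes, with the 7 carrier groups weighted equally. Of the 268 genes, 81 were higher and 87 lower in carriers, beside 22.8% and 24% of all genes. The sizes were also listed by a fold limit: 30 genes were higher and 22 lower by over 1 on the log2 scale, with 6.21% and 5.12% of all genes past the same limits. The median change was -0.04 on the log2 scale, with quartiles at -0.47 and 0.40, beside a median of -0.01 and quartiles of -0.35 and 0.32 over all genes. The window thus held genes on both sides of the control level. Scaled by the spike-in RNAs, which puts carriers 0.31 higher on the log2 scale as a whole, 117 genes were called, 82 higher and 35 lower, beside 32.1% of all A-chromosome genes. The spike-in scale of single libraries varied within groups by an SD of 0.319 on the log2 scale, and the median change of all A-chromosome genes under it was 0.22.

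Past 1.5 on the log2(FPKM + 0.5) scale, 16 called genes were higher (2.84% of all A-chromosome genes) and 4 lower (1.93%). Past 2, 10 were higher (1.4% of all genes) and 0 lower (0.869%). This split depends on the added value, which pulls changes of low genes towards 0. With 0.1 FPKM added, 22 called genes were higher (4.38% of all A-chromosome genes) and 15 lower (3.77%) past 1.5. Past 2, 12 were then higher (2.49% of all genes) and 5 lower (1.97%). The 24 carriers were all above the 4 controls for 40 genes (9.21% of all genes were so) and all below them for 32 genes (7.24% of all genes). For the other 96 called genes the carriers and controls overlapped, and the matching share of all A-chromosome genes was not counted. The summed level of the 268 genes was 8314 ± 332 FPKM in control (SD, n = 4) and 9684 ± 727 FPKM in carriers (SD, n = 24). Its range was 7849 to 8563 FPKM in control and 8552 to 11810 FPKM in carriers, so that the ranges overlapped narrowly. Abundant genes weigh most in this sum: Zm00004b037579 alone ran from 655.8 to 924.6 FPKM in control and from 1179 to 2476 FPKM in carriers. Summed over all genes of the table, control libraries ran from 678344 to 741710 FPKM and carrier libraries from 673390 to 843460 FPKM.

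**Figure D1:**
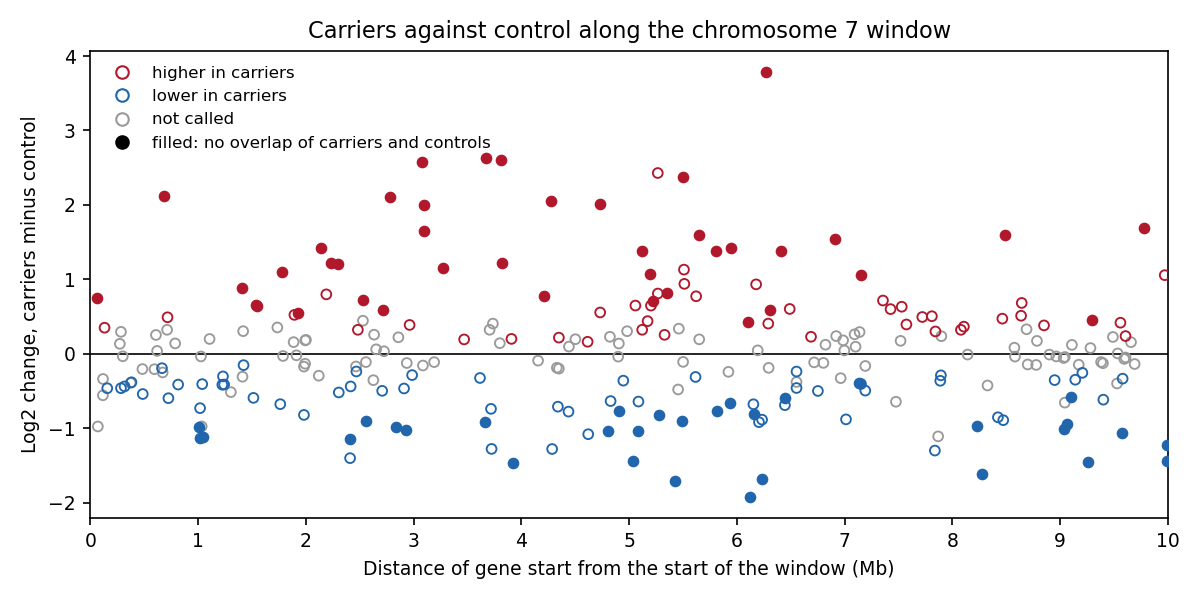
Each point is 1 of the 268 genes, by the distance of its start from the start of the window in Mb and by its change on the log2(FPKM + 0.5) scale, carriers minus control. Higher and lower genes lie among each other over the whole window, with the largest rise at 3.79 and the largest fall at -1.92.

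The gene with the largest difference on the log2(FPKM + 0.5) scale was Zm00004b037545, on chromosome 7 at 176274835 to 176279926. Its level was 19.0, 21.3, 22.1 and 21.1 FPKM in the 4 controls, and 185.6 at the lowest, 304.7 at the median and 354.2 FPKM at the highest of the 24 carriers. All carriers were thus far above all controls. The carrier mean was 294.5 ± 45.9 FPKM (SD, n = 24) against 20.87 ± 1.32 FPKM (SD, n = 4), a ratio of 14.1 and a log2 change of 3.79 ± 0.12 (SE). The level did not follow the copy number: group means ran 305.0, 290.1, 246.3, 294.7, 310.6, 332.7 and 300.9 FPKM from 1B to 7B.

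Zm00004b037448, at 173670127 to 173672614, came next on that scale among the genes with no overlap. By the ratio of means it stood behind the gene starting at 173810659, at 6.94. Controls stood at 10.7, 11.5, 12.7 and 12.9 FPKM, and carriers at 53.75, 77.83 and 94.12 FPKM for the lowest, median and highest plant. Carriers averaged 77.3 ± 9.36 FPKM (SD, n = 24) and controls 11.95 ± 1.03 FPKM (SD, n = 4), which is 6.47 times as much and 2.64 ± 0.10 (SE) on the log2 scale.

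The other genes past a log2 size of 2 started between 170 and 176 Mb. The one at 173078181 to 173082954 averaged 10.1 ± 1.32 FPKM in control (SD, n = 4) and 62.9 ± 6.77 FPKM in carriers (SD, n = 24). The one at 172778437 to 172780394 averaged 85.7 ± 15.7 FPKM in control and 372 ± 68.3 FPKM in carriers. For both, no carrier fell as low as a control. Starts at 170680783, 173810659, 174274894 and 174731656 belonged to further genes of this kind, with control means from 2.97 to 12.5 FPKM and carrier means from 16.2 to 55.8 FPKM.

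The gene at 175266367 to 175266616 was different, as it was listed at 0 in all 4 controls and between 0 and 6.44 FPKM in carriers, so no fold is given. Its carriers included plants at 0, so the groups overlapped.

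On the lower side, Zm00004b037537, at 176123489 to 176126391, had the largest fall on the log2(FPKM + 0.5) scale, a rank that does not hold with 0.1 FPKM added, where a gene listed at 0 in every carrier comes first. Its controls read 63.1, 74.2, 50.00 and 72.6 FPKM and its carriers 12.62, 16.43 and 23.71 FPKM for the lowest, median and highest plant. The controls did not overlap the carriers. The means were 64.96 ± 11.1 FPKM (SD, n = 4) and 17.27 ± 3.30 FPKM (SD, n = 24), and the log2 change was -1.92 ± 0.12 (SE).

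Zm00004b037513, at 175428512 to 175451817, was low in control, at 0.855, 1.87, 1.25 and 0.764 FPKM, and listed at 0 in all 24 carriers. A further gene, at 173922983 to 173924039, was also listed at 0 in all 24 carriers, with a control mean of 0.932 ± 0.503 FPKM (SD, n = 4). An FPKM of 0 says that no fragment was assigned at this depth, which is not proof of absence, and no fold is given for these genes. A mean under 0.1 FPKM in carriers beside 1 FPKM or more in control was found for 2 genes of the window and for 38 A-chromosome genes in all. The opposite pattern was found for 1 gene of the window and for 102 in all.

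**Figure D2:**
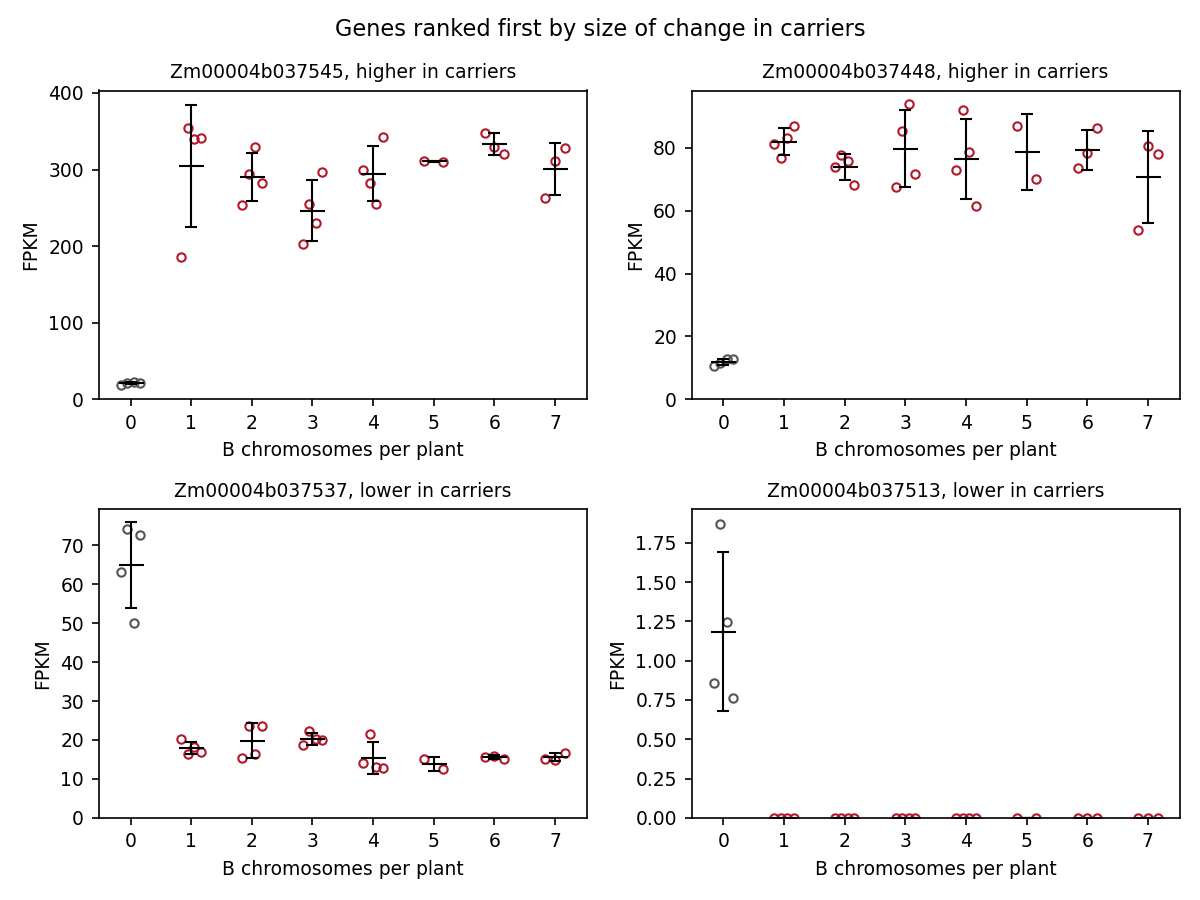
The FPKM of each plant is plotted against its number of B chromosomes for the 4 genes named for carriers against control, with each axis starting at 0. Zm00004b037545 and Zm00004b037448 sit above the controls at every copy number, Zm00004b037537 sits below them, and Zm00004b037513 is listed at 0 in every carrier.

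The most abundant genes of the window included differences in both directions. Zm00004b037579, a locus of 370 bp at 177149216 to 177149585, stood at 655.8, 798.8, 745.7 and 924.6 FPKM in control and at 1179, 1548 and 2476 FPKM in the lowest, median and highest carrier. The groups did not overlap, and the log2 change was 1.06 ± 0.14 (SE). Zm00004b037619, at 178423425 to 178424268, stood at 1425, 833.4, 1231 and 1058 FPKM in control and at 421.3, 598.6 and 1273 FPKM in the lowest, median and highest carrier. Here some carriers lay within the control range, and the log2 change was -0.85 ± 0.19 (SE). Zm00004b037520, at 175504919 to 175507997, had controls at 121.6, 128.3, 98.6 and 114.4 FPKM and carriers from 453.4 to 704.9 FPKM, a log2 change of 2.38 ± 0.10 (SE).

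Calls were more frequent among genes with a higher level, in the window as in the genome. Below 1 FPKM 41.5% of 41 genes were called (24.3% of all A-chromosome genes of that level), from 1 to 10 FPKM 62.4% of 117 (44.6%), from 10 to 100 FPKM 69.5% of 95 (60.6%), and from 100 FPKM 80% of 15 (76.9%). The share in the window was above that over all genes in each class, and the gap was smallest for the most abundant genes. No test is given for these shares, since the rule used them.

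Along the window, calls were densest from 175 to 176 Mb, where 27 of 32 genes (84.4%) were called, 18 higher and 9 lower. The bins from 173 to 174 Mb and from 176 to 177 Mb followed with 73.7% and 66.7%. From 170 to 171 Mb the share was 46.2%, and from 179 to 180 Mb 51.6%. In that last bin 7 of 31 genes lay below all controls, beside 32 of 268 in the window and 7.24% of all A-chromosome genes. Upstream of the window, 110 of 222 genes of the preceding 10 Mb were called (49.5%), and 13 of 28 after its end (46.4%). The rest of chromosome 7 was at 45.9%.

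The longest run of adjacent tested genes with the same call was 8 higher genes from 175121716 to 175270232. Their log2 changes started at 0.32, and the largest value, 2.43, belongs to the gene listed at 0 in controls and so depends on the added 0.5 FPKM. The run includes 2 genes that share the locus from 175121716 to 175127906. Runs of 4 lay at 170814214 to 171025118 (lower), 172143145 to 172304951 (higher), 172305403 to 172417796 (lower) and 177530829 to 177817794 (higher). Runs outside the window were not counted, so these lengths have no background beside them. Over the window, 52 of 95 neighbouring pairs with both genes called had the same direction (54.7%), beside 2972 of 5238 pairs (56.7%) over all A-chromosome genes.

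**Figure D3:**
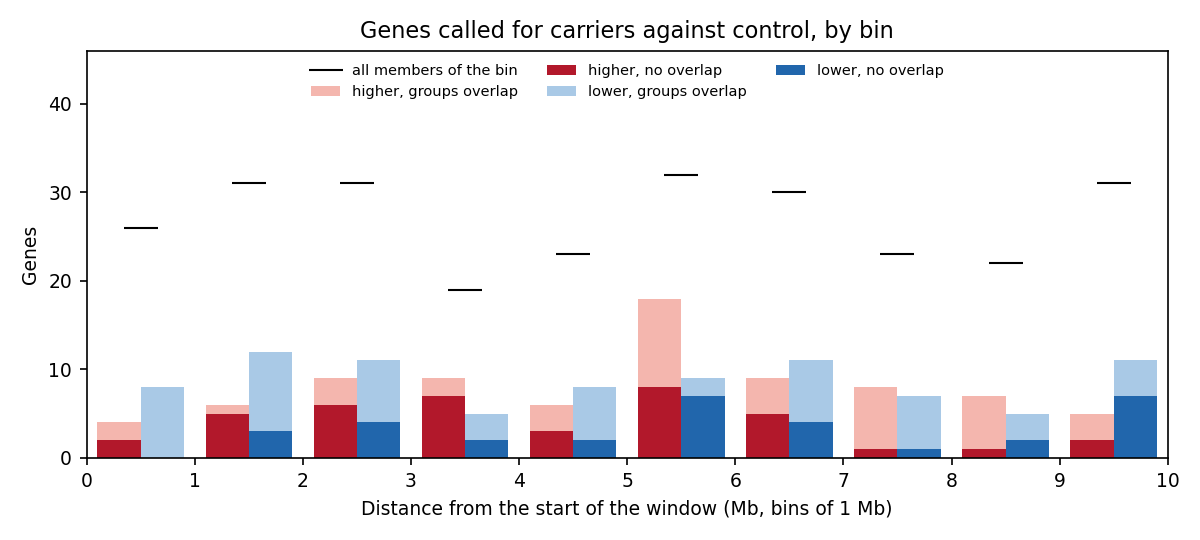
The bars count genes of each 1 Mb bin that were called higher or lower in carriers, against distance from the start of the window in Mb, beside the number of genes in the bin. The bin from 5 to 6 Mb holds 27 called genes of 32, and the first bin 12 of 26.

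All 7 copy numbers were set against the same 4 controls, so these comparisons share their control plants and are given side by side. In 1B plants, 125 of 268 genes were called (35.2% of all genes). In 2B to 7B plants the counts were 124, 120, 148, 113, 131 and 134, beside 33.5%, 32.5%, 38.9%, 29.4%, 38.1% and 35.6% of all genes. The 5B group, with 2 plants, had the lowest count and 4B, with 4 plants, the highest. In the authors' deposited table, 95 of these genes were marked significant for 1B (25.8% of all genes), and 103, 95, 118, 87, 105 and 104 for 2B to 7B, beside 24.9%, 24%, 28.8%, 21.6%, 27.8% and 26.2% of all genes. That table tested only 224 to 228 of the 268 genes per copy number, so its counts have a smaller base than those above.

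The sets called over all carriers are described by copy number, with values that the choice of the window and of the genes used. The 81 higher genes had a median log2 change of 0.66 in 1B and 0.69, 0.69, 0.82, 0.79, 0.81 and 0.80 in 2B to 7B. The 87 lower genes had medians of -0.63 in 1B and -0.62, -0.69, -0.74, -0.72, -0.73 and -0.72 in 2B to 7B. The same medians over all called A-chromosome genes were 0.63 and -0.59 in 1B and 0.69 and -0.64 in 7B. By plant, the median over the higher genes ran from 0.57 in 1B replicate 1 to 0.90 in 4B replicate 2. The same plant, 1B replicate 1, also had the weakest median over the lower genes, at -0.56, while 6B replicate 3 had -0.82. In 1B replicate 1 the median size of difference from the other carriers was 0.281 on the log2 scale over the window and 0.285 over all A-chromosome genes. In the other carriers these ran from 0.122 to 0.207 and from 0.149 to 0.235.

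**Figure D4:**
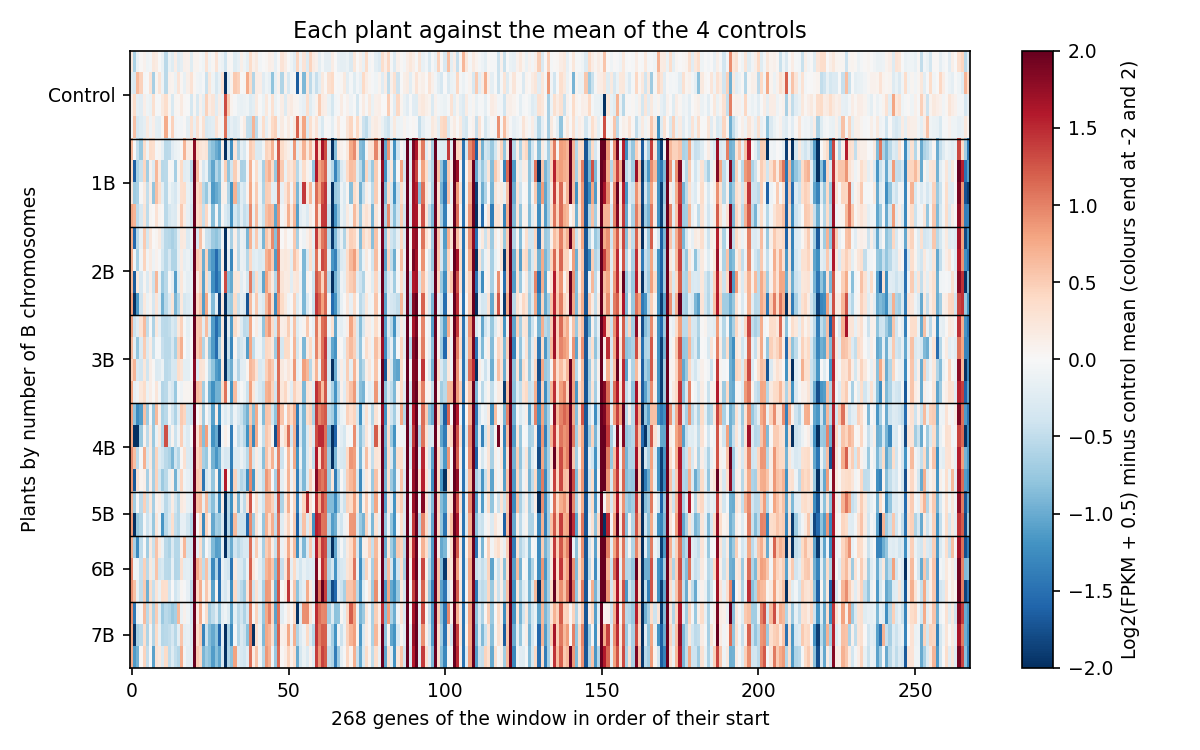
The colour gives the log2 difference of each of the 268 genes, in order of position, from the mean of the 4 controls, for each plant by number of B chromosomes. The controls are centred on their own mean, so they show only their spread, and the medians over the 81 higher genes lie between 0.66 and 0.82 by carrier group.

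Whether the genes followed the number of copies was tested among the 24 carriers, with no control plant in the fit, as a slope of log2(FPKM + 0.5) per B copy in limma. Of 260 genes tested, 7 were called (2.69%), against 2.59% of all A-chromosome genes tested, so the share in the window was near the background. Of these, 4 rose (1.67% of all genes) and 3 fell (0.921%). At an unadjusted p under 0.05 there were 58 genes (22.3%; 18.6% of all genes), 23 with a rising slope (9.53% of all genes) and 35 with a falling one (9.07%). The slopes ran from -0.15 to 0.23 per copy, with a median of -0.006 against 0.002 over all genes. The other 8 of 268 genes were below the filter in carriers. The count was 4 without 1B replicate 1 (1.32% of all genes), 12 without 1B replicate 4 (3.49%) and 1 with the spike-in scale (0.503%).

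Zm00004b037429, at 173099729 to 173112831, rose with nearly every added copy. It stood at 20.1, 24.9, 17.2 and 20.2 FPKM in control, at 63.95, 53.1, 61.0 and 64.2 FPKM in 1B plants and at 118.2, 109.8 and 115.5 FPKM in 7B plants. No 1B plant reached a 7B plant, and no control reached a carrier. The means were 60.6 ± 5.17, 71.8 ± 8.44, 81.4 ± 6.44 and 89.6 ± 4.60 FPKM in 1B to 4B (SD, n = 4 each). They were 94.2 ± 4.17 FPKM in 5B (SD, n = 2), 82.2 ± 6.09 FPKM in 6B and 114.5 ± 4.27 FPKM in 7B (SD, n = 3 each), so that 6B alone broke the order. The slope was 0.12 ± 0.016 per copy on the log2 scale (SE), with an adjusted p of 1.23e-05 from limma, and the 7B mean was 1.89 times the 1B mean. The gene shares its locus with a more abundant gene, which averaged 135.3 ± 14.2 FPKM in control (SD, n = 4) and 431 ± 42.1 FPKM in carriers (SD, n = 24), so the division of reads between the 2 genes is uncertain. The more abundant gene did not rise alongside, at 425.9 to 499.8 FPKM in 1B plants and 405.5 to 446.7 FPKM in 7B plants. Whether the slope reflects the division of reads was not tested. Zm00004b037429 was called in each of the 24 fits that left out 1 plant. Scaled by the spike-in RNAs, its slope was 0.12 but its adjusted p was 0.142 from limma.

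Zm00004b037348, at 171403932 to 171408126, rose less. Its 4B plants read 7.29, 8.63, 9.11 and 10.1 FPKM, its 5B plants 12.4 and 10.1 FPKM, and its 7B plants 10.4, 10.7 and 11.1 FPKM, over a control mean of 5.14 ± 1.67 FPKM (SD, n = 4). The group means stayed between 8.38 and 8.78 FPKM up to 4 copies and between 10.7 and 11.3 FPKM from 5 copies on. The slope was 0.072 ± 0.018 per copy (SE, adjusted p of 0.0246 from limma). The call was lost without 1B replicate 1 or 6B replicate 2, at adjusted p-values of 0.0642 and 0.0539 from limma, and with the spike-in scale, at 0.714.

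Of the 3 genes that fell, 2 are named. Zm00004b037518, at 175492388 to 175494839, stood at 31.7 ± 2.49 FPKM in control (SD, n = 4). Its means were 18.8, 20.8 and 19.9 FPKM in 1B to 3B and 14.1, 15.9, 14.8 and 13.9 FPKM in 4B to 7B. The slope was -0.090 ± 0.022 per copy (SE, adjusted p of 0.02 from limma). Zm00004b037447, at 173661613 to 173665115, was at 41.6 ± 5.67 FPKM in control (SD, n = 4), at 25.4 ± 2.42 FPKM in 1B (SD, n = 4) and at 19.7 ± 1.97 FPKM in 7B (SD, n = 3), with a slope of -0.078 ± 0.022 per copy (SE, adjusted p of 0.0445 from limma). Both means were below control at 1 copy and lower again at 7 copies. The first call was lost without 1B replicate 1 (adjusted p of 0.0586 from limma) and the second in 15 of the 24 fits that left out 1 plant (adjusted p of up to 0.0887), and with the spike-in scale both were lost, at adjusted p-values of 0.195 and 0.624.

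The remaining 3 called genes are given by position. The gene at 177356658 to 177358282 rose from a mean of 81.1 ± 3.56 FPKM in 1B (SD, n = 4) to 113.8 ± 5.73 FPKM in 7B (SD, n = 3). The gene at 177427141 to 177436365 rose at a low level, with a mean of 0.0961 ± 0.115 FPKM in 1B (SD, n = 4) and 0.653 ± 0.134 FPKM in 7B (SD, n = 3), and 3 of its controls were listed at 0. The gene at 174898836 to 174902714 fell from 33.6 ± 2.77 FPKM in 1B (SD, n = 4) to 26.0 ± 2.88 FPKM in 7B (SD, n = 3) around a control mean of 31.0 FPKM. It was the only 1 of the 7 with no call between carriers and control, the contrast that chose the window and called 62.7% of its genes.

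**Figure D5:**
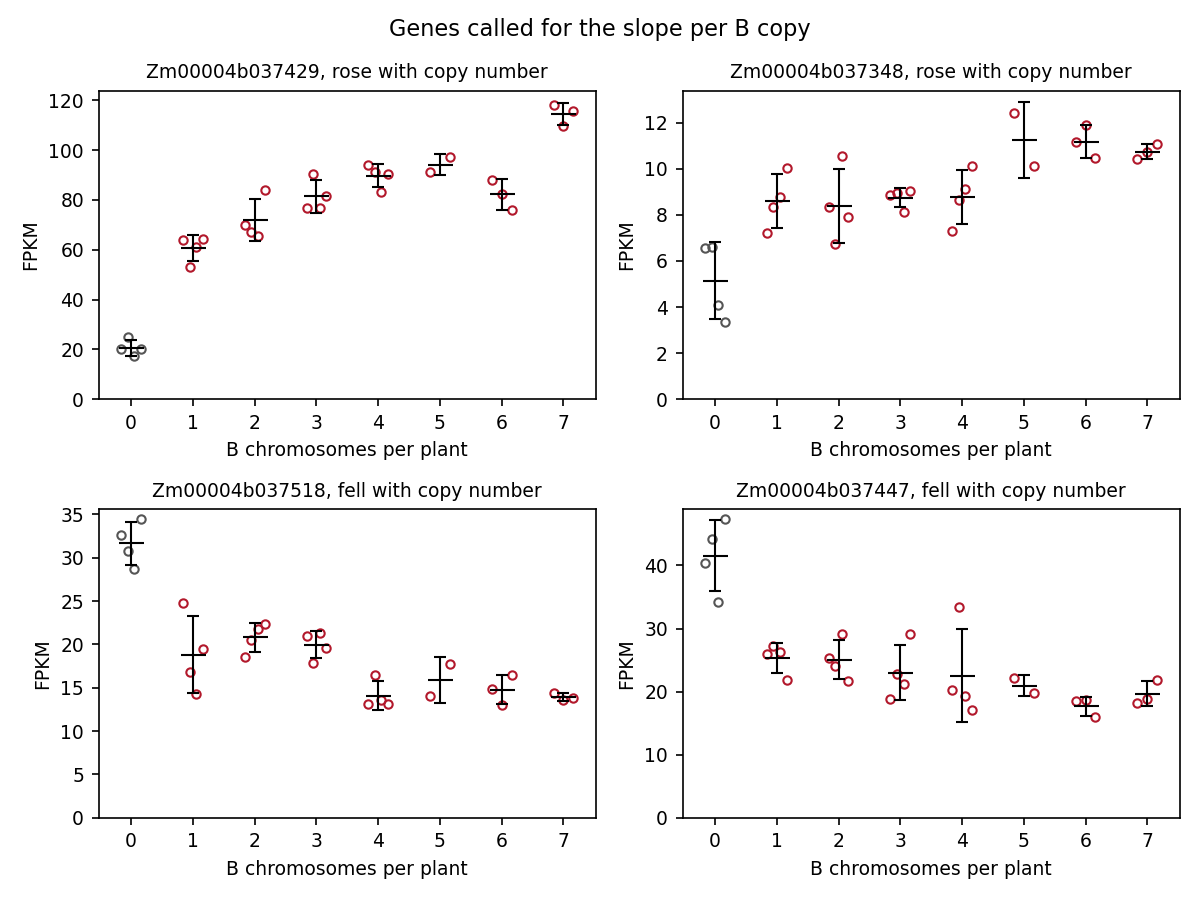
The FPKM of each plant is plotted against its number of B chromosomes for the genes named for a slope among carriers, with each axis starting at 0. Zm00004b037429 climbs from a mean of 60.6 FPKM at 1 copy to 114.5 FPKM at 7 copies, and the other 3 move by less.

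Any difference among the 7 carrier groups, with or without an order, was tested by a limma F test. It called 5 of 260 genes (1.92%), beside 0.989% of all genes, and 37 at an unadjusted p under 0.05 (14.2%; 12.2% of all genes). Zm00004b037429 was again among them (adjusted p of 2.63e-05 from limma) and was the only gene called by both tests among carriers. The count of 5 was 3 without 2B replicate 2, 2B replicate 4, 6B replicate 2 or 6B replicate 3 (0.546% to 0.793% of all genes), and 1 with the spike-in scale (0.346%).

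Zm00004b037521, at 175509411 to 175510315, differed between groups without following copy number. Its 6B plants stood at 16.6, 11.5 and 13.8 FPKM and its 4B plants at 7.41, 14.8, 8.33 and 8.37 FPKM, while its 5B plants were at 1.62 and 0 FPKM. Controls were at 2.66, 2.12, 0 and 4.75 FPKM. The 4B and 6B plants were all above the 5B and 7B plants. The 1B to 3B plants ran from 1.62 to 8.64 FPKM and overlapped both sets. The adjusted p was 0.00627 from the limma F test, and the slope per copy was 0.015 with an adjusted p of 0.962 from limma.

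The other 3 genes were at 171893474 to 171894818, at 171981987 to 171990953 and at 178950209 to 178953566. The first had its highest mean in 6B, at 20.7 ± 5.10 FPKM, and its lowest in 2B, at 9.93 ± 0.925 FPKM. The second had its highest mean in 2B, at 74.8 ± 22.7 FPKM, and its lowest in 5B, at 27.0 ± 3.19 FPKM, beside a wide control spread of 95.1 ± 62.2 FPKM. The third ran from 13.1 ± 0.888 FPKM in 1B to 8.82 ± 1.33 FPKM in 4B. All 3 errors are SDs over the plants of a group, and the adjusted p-values of the limma F test were 0.0283, 0.0189 and 0.0493.

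The miRNA table had 98 loci, of which 10 lay on chromosome 7 and 0 in the window.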

How the data were processed

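RNA-seq of 28 leaf samples was used, 4 of control and 24 of carriers. Gene values were deposited by the authors as FPKM, already scaled between libraries. The authors deposited raw counts for miRNA loci and for the ERCC spike-ins, which are synthetic transcripts mixed into the RNA, with 427551 to 1634328 spike-in counts per library. The authors' deposited table of each copy number against control, in the layout of Cuffdiff per the file headers, holds log2 fold changes and p-values, and gave the coordinates. Tools listed without a role, per the submitters' processing notes, were TopHat2, Bowtie2, Cuffdiff, edgeR and cutadapt 1.16. Build, annotation and the handling of multiply mapped reads are not given in the sources used here.

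Genes reaching 0.5 FPKM in 2 or more libraries were tested on log2(FPKM + 0.5) with limma 3.58.1 (R 4.3.3; moderated statistics, mean-variance trend), a scale that understates changes of low genes. Carriers against control used all 28 libraries in 8 groups, with the 7 carrier groups weighted equally. The slope per copy and the F test used the 24 carriers. The p-values were adjusted by Benjamini-Hochberg across every gene tested, A-chromosome and B-annotated, and called under 0.05. The fits were tested on simulated data. The gene table gives no counts, but its low values step by single reads, which gave relative depths: 250 to 380 of 954 to 1477 genes compared sat at the common step within 0.003 on the log2 scale.

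The members and lists were chosen with earlier results of these data known. Named genes were, per comparison, at most 2 that rose and 2 that fell, by size of change or slope among called genes with a mean of at least 1 FPKM (for carriers against control also with no overlap), the 2 with the smallest F test p, and the 3 with the highest mean. Other genes are given by position. None of the gene identifiers matched the RefSeq gene table, so no names or sequences are given. Alternatives were other pseudocounts and filters, spike-in scaling, array weights, log2 of copies, 7B against 1B, a replicate block, and leaving out each plant.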

Additional observations from a re-analysis of the deposited data

Results flagged for a closer look

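In 4 of 61 groups of 4 plants tested over the named genes and the summed level of the window, 1 plant lay far from the other 3; chance alone marks about 1 group in 20. For Zm00004b037545, 1B replicate 1 was at 185.6 FPKM and the other 1B plants at 339.3, 340.9 and 354.2 FPKM. The other 3 cases were all 4B replicate 2. It stood at 21.45 FPKM for Zm00004b037537, against 12.9, 13.1 and 14 FPKM in the other 4B plants. It stood at 16.52 FPKM for Zm00004b037518, against 13.13, 13.15 and 13.56 FPKM. It stood at 14.84 FPKM for Zm00004b037521, against 7.408, 8.334 and 8.365 FPKM. All of these carrier values kept the side of the control mean that their group had.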

How the results depend on the processing

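The count of genes called between carriers and control was 168, beside 46.8% of all A-chromosome genes. It ran from 117 with spike-in scaling (32.1% of all genes) to 170 with array weights (49.2%). When 1 plant was left out it ran from 147 to 172, with 40.9% to 48.2% of all genes over those fits. The 7 genes called for a slope became 1 with spike-in scaling (0.503% of all genes) and 11 with array weights (3.14%). They became 4 on log2 of copies (1.55% of all genes) and 3 for 7B against 1B (0.638%). When 1 plant was left out the count was 4 to 12, with 1.32% to 4.05% of all genes over those fits. The 5 genes of the F test became 1 with spike-in scaling (0.346% of all genes) and 9 with array weights (2.04%). When 1 plant was left out their count was 3 to 7, with 0.546% to 2.2% of all genes over those fits. The cause was not tested. The genes named for carriers against control or for a slope kept their direction in every alternative run that held them. Direction was not compared for the other genes of the window. The median change of the window's genes between carriers and control went from -0.04 to 0.19 with spike-in scaling. Zm00004b037348, Zm00004b037518 and Zm00004b037447 lost their calls on log2 of copies (adjusted p of 0.0804, 0.0598 and 0.0739 from limma) and for 7B against 1B (0.402, 0.289 and 0.483).

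Replicate numbers did not pair the plants: deviations of plants with the same number correlated at a median of 0.002 over 87 pairs, and with other numbers at -0.001 over 254 pairs. With the replicate block, 167 genes were called for carriers against control (46.2% of all A-chromosome genes). For the slope there were 7 (2.18% of all genes) and for the F test 4 (0.777%). Transposable elements were planned too, but their tables carry no positions, so they could not be placed in the window and were not run. Depth was inferred from steps of low values, so no counting interval is given, and values listed at 0 bound no fold.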

Other observations

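Deviations from the group means were compared between neighbouring genes among the 24 carriers. The median correlation was 0.076 over 251 neighbouring pairs of the window, 0.023 over 23205 neighbouring pairs of all A-chromosome genes, and 0.001 over all 35245 pairs of the window's genes. These are descriptions over plants that share libraries, and weak correlations are no finding.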
